A study of Homo sapiens with 2 samples.

Results

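The genes described here are 10 components of the circadian clock and its BHLHE40 and BHLHE41 repressors: CLOCK, BMAL1, PER1, PER2, PER3, CRY1, CRY2, BHLHE40, BHLHE41 and NR1D2. They were chosen by name, as the probe sets that the array annotation maps to 1 of these symbols, among 18377 genes measured. Each of the 10 had 1 such probe set, and 0 probe sets shared a listed gene with another symbol. Total RNA came from LP-1, an established cell line of human multiple myeloma, and was measured on 2 whole-transcript Affymetrix arrays. The HIF2A array holds cells stably carrying pRUF-IRES-GFP with the full-length human HIF-2α cDNA, and the vector control array holds LP-1 cells with pRUF-IRES-GFP alone, so both share the line, the vector backbone and its GFP. HIF-2α, the product of EPAS1, is the oxygen-labile subunit of a hypoxia-inducible transcription factor. The labels do not say whether either line is a clone or a pool, which promoter drives the insert, at which oxygen tension the cells grew or when in the clock cycle they were harvested.

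The circadian clock is a transcriptional loop that most cells run. CLOCK and BMAL1, transcription factors of the same bHLH-PAS family as the HIF subunits, bind E-box elements and activate the PER and CRY genes, whose proteins return to the nucleus and repress them. BHLHE40 and BHLHE41, also known as DEC1 and DEC2, are repressors that occupy the same E-boxes, and BHLHE40 is a known hypoxia-induced gene. NR1D2 encodes REV-ERBβ, a nuclear receptor that represses BMAL1 against the ROR activators.

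The E-box and the core of the HIF binding element share letters, so the 4 clock genes with the E-box CACGTG close upstream of an annotated start are shown. The sequences are from RefSeq on GRCh38.p14 and give the 250 bases before the start, 5′ to 3′ on the strand of the gene. Capitals mark every match on either strand to the E-box or to a HIF core, spelled ACGTG with adenine first or GCGTG with guanine first, and each CACGTG also counts as an ACGTG on both strands. The windows are chr3:4979187-4979436 (plus strand) for BHLHE40, chr12:26125038-26125287 (minus strand) for BHLHE41, chr17:8152405-8152654 (minus strand) for PER1 and chr3:23945871-23946120 (plus strand) for NR1D2.
BHLHE40: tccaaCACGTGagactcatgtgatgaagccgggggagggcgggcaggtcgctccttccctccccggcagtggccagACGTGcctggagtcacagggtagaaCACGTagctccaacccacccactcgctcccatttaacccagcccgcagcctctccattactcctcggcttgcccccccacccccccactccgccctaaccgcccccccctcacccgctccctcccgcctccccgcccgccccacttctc
BHLHE41: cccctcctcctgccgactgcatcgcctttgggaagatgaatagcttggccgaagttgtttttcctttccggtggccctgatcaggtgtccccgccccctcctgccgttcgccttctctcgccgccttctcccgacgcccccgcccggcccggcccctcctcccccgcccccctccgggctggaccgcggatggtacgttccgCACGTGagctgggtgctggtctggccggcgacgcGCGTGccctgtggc
PER1: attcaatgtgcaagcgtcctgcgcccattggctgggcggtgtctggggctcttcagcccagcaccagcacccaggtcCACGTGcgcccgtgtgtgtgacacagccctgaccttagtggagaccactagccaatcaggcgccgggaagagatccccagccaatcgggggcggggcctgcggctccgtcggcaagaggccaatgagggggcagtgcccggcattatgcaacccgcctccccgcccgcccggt
NR1D2: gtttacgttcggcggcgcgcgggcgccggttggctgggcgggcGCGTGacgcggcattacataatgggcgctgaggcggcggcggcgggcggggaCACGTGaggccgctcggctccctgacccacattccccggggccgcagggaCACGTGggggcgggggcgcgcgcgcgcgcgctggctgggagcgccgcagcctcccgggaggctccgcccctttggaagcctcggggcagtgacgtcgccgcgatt
The BHLHE40 window holds its E-box 245 bases before the start and further ACGTG matches at 174 and 149 bases. The BHLHE41 window holds its E-box at 48 bases and a GCGTG match at 14 bases. The PER1 window holds its E-box at 173 bases. NR1D2 has 2 annotated windows. The one shown lies before the more downstream start and holds E-boxes at 155 and 105 bases, while the other holds 0 matches to any of these motifs. CACGTG occurred in 4 of the 15 windows of the 10 genes and in 6.34% of the 35116 windows of all genes. Either HIF core occurred in 10 of the 15 and in 43.2% of all windows. The 2 windows of PER3 overlap and share a GCGTG match, which counts in both. A match of letters is a description of these windows and not a measured binding site.

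Of the 10 clock genes, 0 differed by 1.5-fold or more between the arrays, which 7.19% of all 18377 genes did without any filter on dim signals. Differences are given as HIF2A minus vector control on the log2 scale, where 1.5-fold is 0.58 in either direction. The largest positive difference was that of BHLHE40, at 0.46, and the largest negative ones were those of NR1D2, at -0.42, and CRY2, at -0.34. EPAS1 itself, the gene on the vector, had log2 signals of 9.05 in the HIF2A array and 3.70 in the vector control, a difference of 5.35. Its relative HIF1A had 6.99 in the HIF2A array and 6.92 in the vector control. With 1 array per group the differences have no replicate check, no error and no test, and the number of arrays limits their precision. A difference in clock phase between the cultures cannot be told apart from one that goes with the vector.

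A filter and a background level place the signals. The filter kept the 11469 genes with at least 4.01 in either array, where 4.01 is the median of all probe sets' mean signals. The 95th percentile of 359 olfactory receptor genes, taken as background, was 3.58 in the HIF2A array and 3.59 in the vector control. Of the 10 clock genes, 7 passed the filter, and each of the 7 reached it in both arrays. CLOCK, BHLHE41 and PER3 did not pass. Among the 7, 0 were higher and 0 lower by 1.5-fold or more, where 5.67% of all filtered genes were higher and 4.76% lower by that much. Likewise 0 and 0 of the 7 reached 2-fold, against 0.706% and 0.732% of filtered genes. At a threshold of 1.2-fold, added after the values were seen, 1 of the 7 was higher and 2 were lower, against 24.8% and 19.7% of filtered genes.

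**Figure D1:**
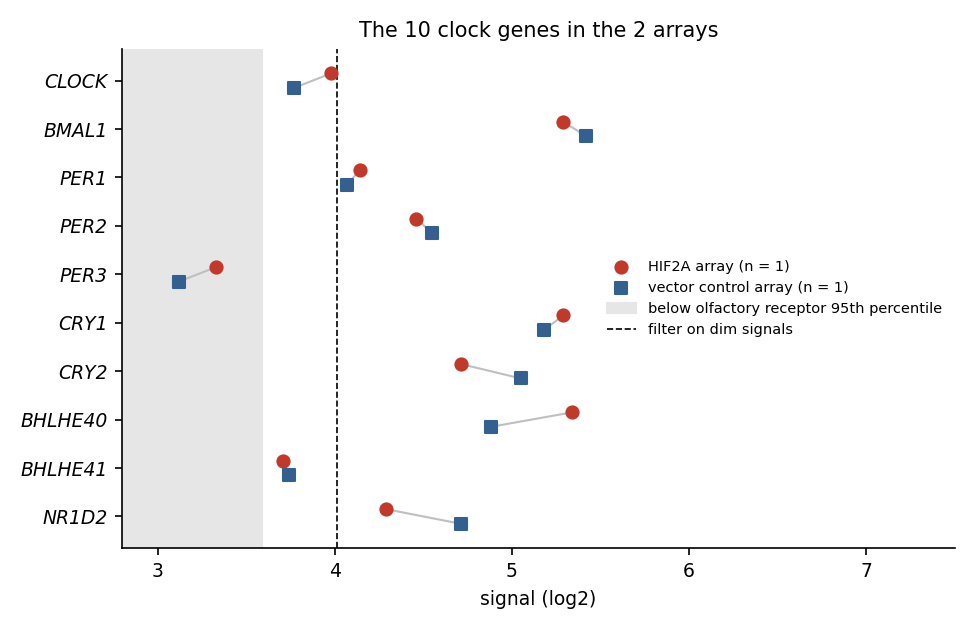
Signal (log2, horizontal axis) of each of the 10 clock genes in the HIF2A array (red circles) and the vector control array (blue squares), 1 array each. The grey area lies below the background level of 3.59 and the dashed line is the filter at 4.01. PER3 lies in the grey area in both arrays, CLOCK and BHLHE41 lie between it and the filter, and BHLHE40, CRY2 and NR1D2 have the widest gaps.

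Of the activators, BMAL1 had 5.29 in the HIF2A array and 5.42 in the vector control, a difference of -0.13. Of 3049 genes with a mean signal within 0.5 log2 units of it, 72.0% differed by at least as much in either direction. The 20 nearest filtered genes on chromosome 11 had a median difference of 0.21, and BMAL1 relative to these neighbours came to -0.34. CLOCK, the histone acetyltransferase partner of BMAL1, had 3.98 in the HIF2A array and 3.77 in the vector control, a difference of 0.21, and stayed just under the filter. Both values lie above background but close to it, and 45.5% of 4694 genes of like signal differed by at least as much.

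Of the PER repressors, PER1, which is also an immediate target of CREB, had 4.14 in the HIF2A array and 4.07 in the vector control. PER2 had 4.46 in the HIF2A array and 4.55 in the vector control. These differences of 0.07 and -0.09 are small against the spread of genes of like signal, 81.6% and 77.7% of which differed by at least as much. PER3 had 3.33 in the HIF2A array and 3.12 in the vector control, both below background, so no fold is given.

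The CRY genes encode the main repressors of CLOCK and BMAL1, and the differences of the 2 had opposite signs. CRY1 had 5.29 in the HIF2A array and 5.18 in the vector control, a difference of 0.11. Of 3137 genes of like signal, 75.5% differed by at least as much as CRY1. CRY2 had 4.71 in the HIF2A array and 5.05 in the vector control, which is 1.27-fold lower in the HIF2A array. Of 3442 genes of like signal, 32.2% differed by at least as much as CRY2. Its 20 neighbours on chromosome 11 had a median of 0.15, opposite to its own sign, and relative to them it came to -0.49. CRY1 relative to its neighbours came to 0.03. The gap between the CRY differences, CRY1 minus CRY2, was 0.45, and a constant shift of either array leaves this gap unchanged.

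BHLHE40 had 5.34 in the HIF2A array and 4.88 in the vector control, which is 1.38-fold higher and the largest difference of the 10 in either direction. It ranked 1188 from the top of the 11469 genes past the filter. Of 3245 genes of like signal, 20.3% differed by at least as much in either direction, and 12.4% of the 3245 did so upward. The robust SD of the differences at that signal, a scaled median absolute deviation, was 0.34. BHLHE40 relative to its neighbours on chromosome 3, with a median of 0.14, came to 0.32. Its paralog BHLHE41 had 3.71 in the HIF2A array and 3.74 in the vector control, both close to background, and the difference of -0.03 changed sign between scalings.

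NR1D2 had 4.29 in the HIF2A array and 4.71 in the vector control, 1.34-fold lower in the HIF2A array. It ranked 1130 from the bottom of the filtered genes, and 19.6% of 3824 genes of like signal differed by at least as much in either direction. Its neighbours on chromosome 3 had a median of 0.02. BHLHE40 and NR1D2, the extremes of the 10 genes, both carry the E-box shown above, as do PER1 and BHLHE41, which differed by 0.07 and -0.03. The other REV-ERB gene, NR1D1, had 4.85 in both arrays.

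**Figure D2:**
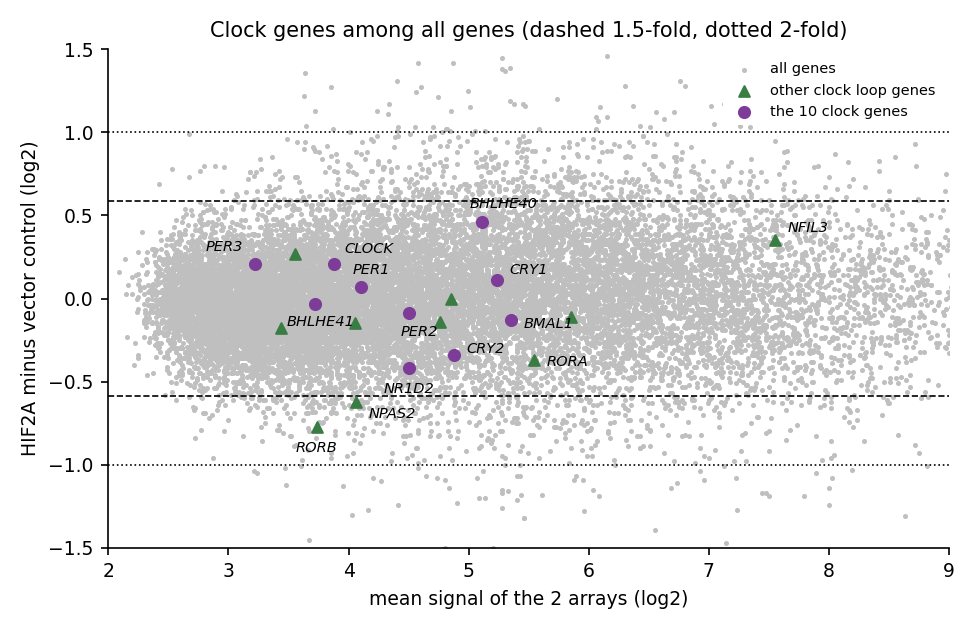
Difference between the arrays (HIF2A minus vector control, log2) against the mean signal of both (log2) for all genes (grey), the 10 clock genes (purple) and the other clock loop genes (green triangles), within the range of the axes. Dashed lines mark 1.5-fold and dotted lines 2-fold. The 10 clock genes lie inside the dashed lines, and NPAS2 and RORB lie below the lower one.

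Past the filter, 3 of the 7 clock genes were higher in the HIF2A array and 4 were lower, where 52.6% and 46.1% of all genes were. Their median difference was -0.09, against 0.03 over all genes past the filter. Over all 10 clock genes, dim ones included, the median was 0.02, so the sign of the median depends on the filter. The median size of the difference, regardless of sign, was 0.13 for the 7 and 0.23 for all genes past the filter.

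Under 11 other processing settings 0 of the 10 clock genes came to 1.5-fold. Most of these settings could not have raised that count. The filter and probe set settings repeat the deposited values of these genes by construction. Adding a constant on the linear scale or a background floor cannot carry a smaller difference to 1.5-fold. Median centring shifts all genes by the same small amount. Quantile normalization, loess centring and subtraction of neighbours could have raised the count.

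**Figure D3:**
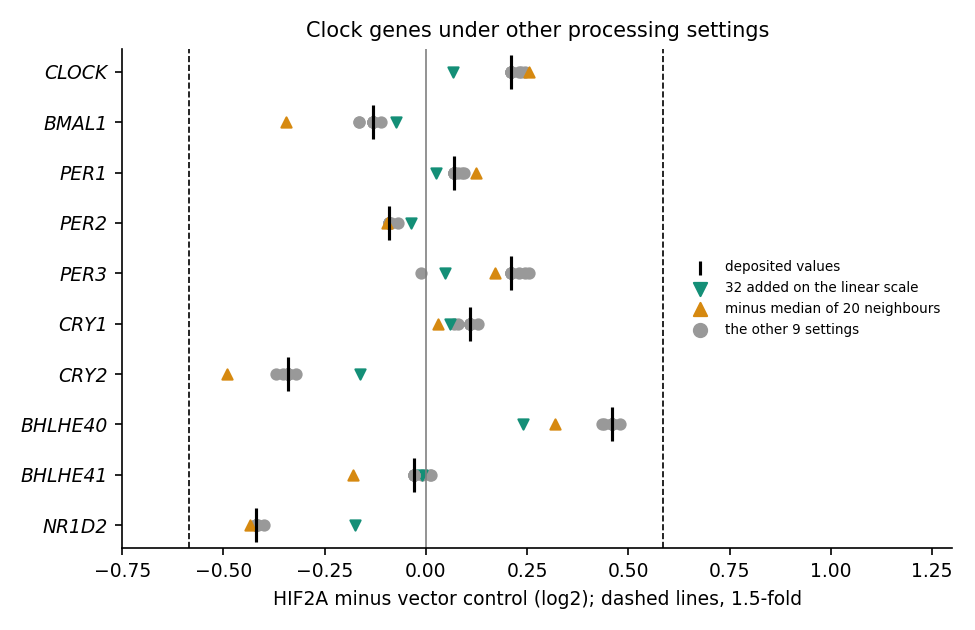
Difference (HIF2A minus vector control, log2) of each of the 10 clock genes on the deposited values (black bars) and under 11 other processing settings (points), with dashed lines at 1.5-fold. All points lie inside the dashed lines, the values closest to them being -0.49 for CRY2 relative to its neighbours and 0.48 for BHLHE40 after median centring.

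The rest of the loop was read from 10 measured genes, of which 8 passed the filter. By 1.5-fold or more 0 of the 8 were higher and 2 lower, against 5.67% and 4.76% of filtered genes. Of these 2, NPAS2 alone was measured above background in both arrays. NPAS2, which can stand in for CLOCK as partner of BMAL1, had 3.75 in the HIF2A array and 4.37 in the vector control, a difference of -0.62. RORB, a mainly neuronal and retinal member of the ROR activators, had 3.35 in the HIF2A array, below background, and 4.12 in the vector control, and its fold is bounded at 1.45-fold lower or more in the HIF2A array. The measured difference of RORB was -0.77, but the bound does not reach 1.5-fold. NPAS2, RORB and CIART passed the filter only through the vector control, so the filter fixed their direction. With 32 added to each linear signal, which shrinks dim genes, NPAS2 came to -0.21 and RORB to -0.23. RORA, a widely expressed ROR gene, had 5.36 in the HIF2A array and 5.73 in the vector control, a difference of -0.37.

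The D-box factors are outputs that feed back on the loop. NFIL3, the D-box repressor, had 7.73 in the HIF2A array and 7.38 in the vector control, a difference of 0.35. The D-box activators DBP and TEF differed by -0.11 and -0.14. The third activator, HLF, had 3.69 in the HIF2A array and 3.42 in the vector control, the last below background, which bounds it at 1.07-fold higher or more. Of the 5 loop genes that reached the filter in both arrays, 3 were lower (RORA, TEF and DBP), NFIL3 was higher and NR1D1 was equal. Over all filtered genes 52.6% were higher and 46.1% lower. Of genes of like signal, 67.0% differed by at least as much as TEF and 76.3% as DBP, against 32.6% for RORA and 33.4% for NFIL3. CIART, a repressor of CLOCK and BMAL1, had 3.98 in the HIF2A array and 4.13 in the vector control. BMAL2 lay below background in both arrays, at 3.35 in the HIF2A array and 3.53 in the vector control.

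Clock proteins are timed by phosphorylation and degradation. Of 26 genes of these kinases, phosphatases and ubiquitin ligases past the filter, 18 were higher and 8 lower, with a median of 0.04. Over all filtered genes 52.6% were higher and 46.1% lower. Of the 25 that reached the filter in both arrays, 17 were higher and 8 lower. The direction of a gene that passed only through the HIF2A array was fixed by the filter. By 1.5-fold or more 2 of the 26 were higher and 0 lower, against 5.67% and 4.76% of filtered genes. CSNK1A1, which encodes casein kinase 1α, a kinase that phosphorylates PER proteins, had 6.94 in the HIF2A array and 5.96 in the vector control, a difference of 0.98. FBXW11, which encodes a β-TrCP subunit of the ligase that degrades phosphorylated PER, had 5.90 in the HIF2A array and 4.94 in the vector control, a difference of 0.96. Both lie on chromosome 5 where the 20 nearest genes were higher as well (median 0.32 for CSNK1A1 and 0.20 for FBXW11). Relative to them CSNK1A1 came to 0.66 and FBXW11 to 0.76, and the part of the neighbourhood in these differences was not tested. The closely related genes differed less. CSNK1D, for casein kinase 1δ, differed by 0.11 and BTRC, the other β-TrCP gene, by 0.01. CSNK1E and CSNK2A1 are not analysed here.

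Of 27 cofactors of the loop past the filter, 17 were higher and 10 lower, with a median of 0.08. These shares were 52.6% and 46.1% over all filtered genes. In each direction 1 of the 27 was at least 1.5-fold apart, against 5.67% higher and 4.76% lower of filtered genes. HDAC3, the deacetylase that REV-ERB proteins recruit, had 7.09 in the HIF2A array and 6.41 in the vector control, a difference of 0.68. It also lies on chromosome 5, and came to 0.34 relative to its neighbours. TIPIN, the partner of TIMELESS at replication forks, had 5.98 in the HIF2A array and 6.71 in the vector control, a difference of -0.73, while TIMELESS differed by 0.16.

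Genes of CREB and glucocorticoid inputs to PER1 and PER2 were read as 1 list, not split by activating or restraining role. Past the filter, 9 of 10 were higher and 1 lower, against 52.6% and 46.1% of all genes past it. Their median was 0.30. At least 1.5-fold higher was 1 of the 10, against 5.67% of filtered genes. It was CRTC1, a CREB coactivator, with 5.82 in the HIF2A array and 5.14 in the vector control. It fell short of 1.5-fold relative to its neighbours, at 0.575, and with 32 added to each linear signal, at 0.40, where the list median was 0.18. CREB1 was the lower gene, at 7.02 in the HIF2A array and 7.32 in the vector control. NR3C1, the glucocorticoid receptor gene, differed by 0.48 among neighbours on chromosome 5 with a median of 0.41. PER1 and PER2 themselves differed by 0.07 and -0.09.

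Clock-controlled output genes divided evenly, with 4 higher and 4 lower of 8 past the filter, a median of 0.01 and 0 at least 1.5-fold apart. Over all filtered genes 52.6% were higher and 46.1% lower, and by 1.5-fold or more 5.67% and 4.76%. The Krüppel-like factor gene KLF9 and the mitotic kinase gene WEE1 were the highest, each with a difference of 0.33, and the other probe sets of WEE1 gave 0.36 and 0.40. NOCT, a rhythmic phosphatase gene, had 5.18 in the HIF2A array and 5.75 in the vector control, a difference of -0.57. The median of its 20 neighbours on chromosome 4 was -0.60, and relative to them it came to 0.04. KLF11 differed by -0.28, and NAMPT, the rhythmic enzyme of NAD synthesis, by 0.03 on both of its probe sets.

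**Figure D4:**
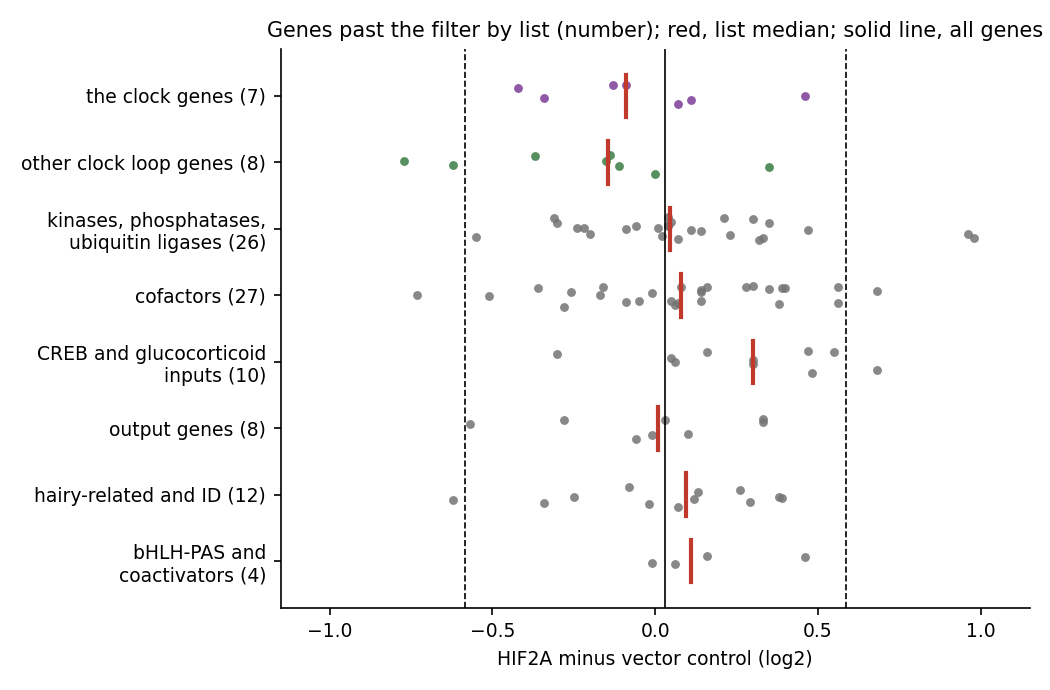
Difference between the arrays (HIF2A minus vector control, log2) of each gene past the filter, by list, with the number of genes in brackets. Red bars are list medians, dashed lines 1.5-fold and the solid line the median of all genes, 0.03. The 10 genes of CREB and glucocorticoid inputs have the highest list median, 0.30, and 3 of the 8 other clock loop genes entered only through the vector control.

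The label of the cells was checked on markers. Of 10 plasma cell markers 9 passed the filter, and 0 lay below background in both arrays. Of the 9, 4 were higher and 5 lower, with a median of -0.04, where 52.6% and 46.1% of all filtered genes were. By 2-fold or more 0 of the 9 were higher and 2 lower, against 0.706% and 0.732% of filtered genes, so not all of these markers were alike in the arrays. The surface receptor gene SLAMF7 had 4.24 in the HIF2A array and 6.63 in the vector control, and TNFRSF17, the BCMA gene, had 7.68 in the HIF2A array and 8.71 in the vector control. Passing the filter were 1 of 5 measured B cell markers, 1 of 6 of T and NK cells and 1 of 5 of myeloid cells. Likewise 2 of 5 of stromal cells and 2 of 4 of endothelial and erythroid cells passed. The filter kept 11469 of all 18377 genes. Below background in both arrays were 2 of the B cell, 4 of the T and NK cell and 3 of the myeloid markers. So were 2 of the stromal and 2 of the endothelial and erythroid markers. Of those that passed, PECAM1 was higher by 0.92, with 5.28 in the HIF2A array and 4.36 in the vector control. The other PECAM1 probe set had 3.07 in the HIF2A array and 2.59 in the vector control, both below background. The part of these marker differences in the values of the clock genes was not tested. In bulk RNA, fewer cells with a transcript and less of it per cell cannot be told apart.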

How the data were processed

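Each array has 1 deposited column of log2 signals, which the authors made in Affymetrix Expression Console, according to the submitters' processing notes. The software version, algorithm and centring were not given in the sources. That the scale is log2 follows from the values, since the highest, 13.97, is above 11.09, which a natural log of 16-bit readings cannot exceed. Of 28869 probe sets, 19310 have 1 symbol in the array annotation, and 19279 of these were matched to RefSeq by Entrez number. A gene took its probe set with the highest mean. No fit or p-value was possible. The 10 genes and all lists were chosen with earlier results of these data known. Named are the 10 genes, EPAS1, HIF1A, all other measured loop genes, and in each other list besides the cell type markers the genes past the filter at least 1.5-fold apart, or up to 2 with the largest difference each way. TIMELESS, CSNK1D, BTRC, NAMPT, NR3C1, CREB1, ID2, HES2, HES4, AHR, SLAMF7, TNFRSF17 and PECAM1 were added after their values were seen. Alternatives were quantile normalization, median and loess centring, 32 added on the linear scale, 3 other filters, 2 other probe set rules, a background floor and subtraction of neighbours. The code was tested on simulated data. Python 3.11.15, numpy 2.4.6, pandas 2.3.3, statsmodels 0.14.6 and matplotlib 3.10.9 were used.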

Additional observations from a re-analysis of the deposited data

How the results depend on the processing

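Under 11 other settings 0 of the 10 clock genes reached 1.5-fold, and none of their 110 values moved by the robust SD of all differences, 0.34. Most of the 10 differences are themselves smaller than 0.34, so a setting that only shrinks them could not move them that far. The filter and probe set settings repeat the deposited values by construction. The sign was kept in each setting by 8 genes, while BHLHE41 came to 0.01 after quantile normalization and after loess centring, and PER3 to -0.01 with the background floor. The median of the clock genes was -0.04 with 32 added and 0.02 without a filter or with the 25th percentile filter, through the dim genes that then enter. With the 75th percentile filter it has no value, since no clock gene is left. At 1.2-fold, chosen after seeing the data, 1 clock gene was higher and 2 were lower. With 32 added, BHLHE40 came to 0.24, NR1D2 to -0.17 and CRY2 to -0.16. Adding 32, which shrinks dim genes by construction, left NPAS2 at -0.21, RORB at -0.23, FBXW11 at 0.55, TIPIN at -0.52, HDAC3 at 0.52, CRTC1 at 0.40 and ID1 at -0.33, below 1.5-fold, and the CREB and glucocorticoid inputs at a median of 0.18. With the floor RORB came to -0.54. Relative to neighbours, HDAC3 came to 0.34 and CRTC1 to 0.575. No paired analysis was possible because each group has 1 array, and for the same reason no replicate could be left out.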

Other observations

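Genes of related families were also read. Of 12 hairy-related and ID genes past the filter, 7 were higher in the HIF2A array and 5 lower, with a median of 0.10. Over all filtered genes 52.6% were higher and 46.1% lower, and by 1.5-fold or more 5.67% and 4.76%. At least 1.5-fold apart was 1 of the 12, ID1, which encodes an inhibitor of bHLH factors. It had 4.92 in the HIF2A array and 5.54 in the vector control. ID2, a relative that also acts in the clock, had 6.01 in the HIF2A array and 5.63 in the vector control, a difference of 0.38, the opposite direction. HES4, a hairy-related repressor gene, differed by 0.39 and HES2 by -0.34.

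Of 11 bHLH-PAS and coactivator genes measured besides EPAS1, HIF1A and the clock genes, 4 passed the filter. Of these 4, 0 were at least 1.5-fold apart, where 5.67% of filtered genes were higher and 4.76% lower by that much. ARNT, the shared partner of the HIF subunits, had 7.60 in the HIF2A array and 7.44 in the vector control. Of the coactivator genes, NCOA1 differed by 0.46 and NCOA2 by -0.01. The aryl hydrocarbon receptor gene AHR lay below background in both arrays, at 3.26 in the HIF2A array and 3.47 in the vector control.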
